A study of Mus musculus with 12 samples.

Results

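The replication-dependent histone genes were followed in cultured mouse oligodendrocyte precursor cells (OPCs) that were left untreated (Ctr), treated with dexamethasone (Dexa, 1 µM) or treated with the cytokine IFN-γ (IFNg, 100 ng/ml) for 48 h. They were taken as every gene whose Ensembl symbol begins with Hist1h, Hist2h, Hist3h or Hist4h, which gave 70 of the 55536 genes in the annotation. Of these, 6 encode the linker histone H1, 20 belong to the H2A class, 19 to H2B, 12 to H3 and 13 to H4. A total of 67 are protein-coding, and the other 3 are the annotated pseudogenes Hist1h2aj, Hist1h2al and Hist3h2bb-ps. The cells came from pooled brains of pups of both sexes at postnatal days 4 to 6 (P4-P6). They were isolated by sorting for a Sox10-driven GFP or with CD140a beads, then grown with the mitogens PDGFaa and bFGF. All 12 samples carry the mouse model label EAE (experimental autoimmune encephalomyelitis), the controls included, and each group holds 4 replicates from different litters. Total RNA was sequenced after removal of ribosomal RNA, so that histone mRNAs, which lack a poly(A) tail, were not selected against.

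Histones H2A, H2B, H3 and H4 form the core around which DNA is wound, and H1 sits on the linker DNA between cores. The replication-dependent genes make the bulk of these proteins in S phase, when newly copied DNA has to be packaged. Their mRNAs end in a conserved stem-loop instead of a poly(A) tail, and the stem-loop binding protein Slbp carries the message through processing, translation and its rapid decay at the end of S phase. OPCs are the proliferating cells of the oligodendrocyte lineage, so histone mRNA in such a culture is commonly read beside other S-phase genes.

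The genes lie in 4 clusters on the mm10 (GRCm38) assembly. Hist1 on chromosome 13 holds 56 genes, 55 of them within chr13:21715763-23934851, and the pseudogene Hist1h2al lies outside that span. Hist2 holds 10 genes at chr3:96219865-96270132, Hist3 holds 3 at chr11:58948920-58956830, and the single gene of Hist4 lies at chr6:136801553-136804415. All 6 H1 genes are in Hist1. Within Hist1, 13 neighbouring pairs are transcribed away from each other from starts at most 1000 bases apart, and 12 of these pair an H2A gene with an H2B gene, with 176 to 660 bases between the starts. Hist2 and Hist3 each hold 1 such H2A and H2B pair, and no H3 gene was paired with an H4 gene in this way.

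The stem-loop was searched for in every annotated transcript because it is the feature that sets these mRNAs apart. The search asked for a 6-base stem beginning GG, a 4-base loop beginning with T, and the complementary second arm, downstream of the stop codon. It was present in an annotated transcript of 46 of the 70 genes, beginning 21 to 58 bases after the stop codon (median 31), and took 8 distinct forms. The commonest form was shared by 26 genes. In the last 100 bases of the transcript the stem-loop stood in 23 of 78 transcripts of these genes (29.5%), against 74 of 141767 transcripts of all genes (0.0522%). For 15 members the annotated transcript ends within 2 bases of the stop codon, so that no stem-loop could be found there. The sequences are shown on the transcribed strand with the 16 bases of stem, loop and stem in capitals and 5 flanking bases on each side. Those of Hist1h1c, Hist1h1d and Hist3h2a are the commonest form, and Hist1h2bb and Hist1h4h carry the other forms with the most members, 6 and 7.
Hist1h1c, chr13:23739512-23739527: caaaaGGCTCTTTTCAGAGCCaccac
Hist1h1d, chr13:23555787-23555802: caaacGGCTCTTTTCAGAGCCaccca
Hist3h2a, chr11:58955172-58955187: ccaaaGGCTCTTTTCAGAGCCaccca
Hist1h2bb, chr13:23747203-23747218: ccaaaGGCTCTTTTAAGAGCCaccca
Hist1h4h, chr13:23531458-23531473: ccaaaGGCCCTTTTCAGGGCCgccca

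Promoters were compared because the members were seen to move together between replicates. Of the 70 genes, 62 could be matched to a promoter window running from 250 bases before to 50 bases after the start (RefSeq, GRCm38.p6), and short motifs were sought on both strands. CCAAT, the box bound by the factor NF-Y, was in 53 of the 62 windows (85.5%) against 41.1% of the windows of 27025 genes. It stood in all 50 windows of H1, H2A, H2B and H3 genes but in 3 of 12 H4 windows, those of Hist1h4a, Hist1h4c and Hist1h4d. TATAAA was in 35 windows (56.5%, against 15.7% of all genes). The octamer ATTTGCAT, a binding sequence of the factor Oct1, was in 13 (21.0%, against 1.97%), and no H1, H3 or H4 window held it. AAACACA, an element known from H1 promoters, was in 9 windows (14.5%, against 8.22%), among them 5 of the 6 H1 windows, Hist1h1a being the exception. TTCNNNGAA, the spaced palindrome bound by STAT factors downstream of IFN-γ, was in 3 windows (4.84%, against 9.55%), those of Hist1h1e, Hist1h2ba and Hist4h4. These are matches of letters in a window, not sites shown to be used. The windows of H2A and H2B neighbours transcribed away from each other can overlap, so the same site may count for both genes. The 4 promoters printed here are those of Hist1h1a, whose mRNA passed the test under IFN-γ, and of an H1, an H2B and an H4 gene from among the most abundant, with any of the 5 motifs in capitals on either strand.
Hist1h1a, chr13:23763418-23763717, plus strand: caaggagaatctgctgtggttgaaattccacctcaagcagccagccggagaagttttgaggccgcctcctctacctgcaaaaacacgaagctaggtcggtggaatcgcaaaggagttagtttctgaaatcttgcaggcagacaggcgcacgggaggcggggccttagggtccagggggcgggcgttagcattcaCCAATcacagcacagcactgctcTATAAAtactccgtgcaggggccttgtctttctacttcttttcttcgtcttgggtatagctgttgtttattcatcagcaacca
Hist1h1c, chr13:23738557-23738856, plus strand: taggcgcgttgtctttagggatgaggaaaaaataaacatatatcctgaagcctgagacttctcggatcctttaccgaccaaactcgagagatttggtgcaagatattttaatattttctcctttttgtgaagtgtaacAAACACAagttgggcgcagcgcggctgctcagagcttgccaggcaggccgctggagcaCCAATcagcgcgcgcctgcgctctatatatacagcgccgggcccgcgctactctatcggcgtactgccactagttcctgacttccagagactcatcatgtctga
Hist1h2bb, chr13:23746484-23746783, plus strand: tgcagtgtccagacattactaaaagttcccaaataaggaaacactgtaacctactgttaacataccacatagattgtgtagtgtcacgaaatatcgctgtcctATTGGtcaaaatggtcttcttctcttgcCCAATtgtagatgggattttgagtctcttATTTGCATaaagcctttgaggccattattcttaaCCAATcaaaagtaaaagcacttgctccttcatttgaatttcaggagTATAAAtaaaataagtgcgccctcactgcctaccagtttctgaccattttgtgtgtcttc
Hist1h4h, chr13:23530794-23531093, plus strand: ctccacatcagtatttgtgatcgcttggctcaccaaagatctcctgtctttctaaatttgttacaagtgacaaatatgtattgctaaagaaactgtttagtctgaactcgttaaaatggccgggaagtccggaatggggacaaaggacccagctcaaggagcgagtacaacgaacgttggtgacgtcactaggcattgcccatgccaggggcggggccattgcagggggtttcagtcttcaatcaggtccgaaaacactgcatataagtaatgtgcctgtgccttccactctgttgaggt

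The 11 libraries with a complete table held 19209063 to 52074652 estimated reads in genes. The table of Dexa replicate 3 ended early: it listed 47855 of 141862 transcripts (33.7%) with 6615255 reads, among them the Hist1 and Hist3 genes but not Hist2 and Hist4, so this library was left out of the main comparisons and used only where stated. Of the 70 genes, 65 had at least 10 reads in at least 4 libraries and were tested among 17919 genes. The 5 others were Hist1h1t, the testis H1 (81 reads over the 11 libraries), Hist2h3c1 (26.3), Hist1h2aa (4), Hist1h2aj (1.4) and Hist1h2ba (1), and no member was without a read in every library. Markers of the labelled cell type were present, with Pdgfra at 1293 to 3380 CPM in Ctr, CPM being counts scaled to a common library size with edgeR's TMM factors. The summed CPM of 10 microglia and macrophage markers was 8.64 to 14.1 over the 11 libraries, and that of 8 endothelial and mural markers 7.43 to 21.7. Summed astrocyte markers reached 570.5 to 1975 and neuron markers 892 to 1430. Single genes weighed heavily in both sums. Scaled on the genes listed for Dexa replicate 3 alone, Map2 stood at 2162 CPM in Ctr replicate 1, against 19.3 for Syt1 and 4.92 for Rbfox3. Among astrocyte markers Slc1a3 stood at 1922 and Aldoc at 1061 there, against 23.6 for S100b and 1.53 for Gfap. Replicates 3 and 4 of every group share a title prefix while replicates 1 and 2 carry one each, and the labels do not say what the prefix stands for.

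Histone mRNA levels differed more between the replicates than between the treatments. The histone genes took 0.903%, 0.575%, 0.148% and 0.166% of the reads in Ctr replicates 1 to 4, a mean of 0.448% ± 0.362 (SD, n = 4). In Dexa replicates 1, 2 and 4 they took 0.816%, 0.434% and 0.133% (mean 0.461% ± 0.343, n = 3). In IFNg replicates 1 to 4 the shares were 0.71%, 0.522%, 0.345% and 0.249% (mean 0.457% ± 0.204, n = 4). The 3 group means lay closer together than any SD, and replicates 1 and 2 were above replicates 3 and 4 in every group. The highest and lowest IFNg libraries differed by 2.91 times in summed histone CPM, against 6.35 times in Ctr.

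Other gene lists differed between the same Ctr replicates. In Ctr replicates 1 to 4 the summed CPM of 24 S-phase genes was 3185, 2442, 1208 and 1181, highest in the libraries with the most histone mRNA. That of 8 astrocyte markers was 1526, 1251, 570.5 and 887.1, in the same direction. Scaled on the genes listed for Dexa replicate 3, Slc1a3 followed this sum (1922, 1657, 630.5 and 1046 CPM), as did Aldoc (1061, 789.1, 392.7 and 570.4 CPM). S100b ran the other way, at 23.6, 79.8, 150.4 and 217.6 CPM. The summed CPM of 10 OPC markers was 5968, 10100, 14010 and 13520, opposite in direction to the histone genes. The part of these lists in the differences between histone levels of the replicates was not tested.

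The same order of replicates was seen in each histone class. H1 summed to 2244, 1449, 520.6 and 567.4 CPM in Ctr replicates 1 to 4. H4 summed to 2057, 1223, 213.6 and 293.5 CPM, and H2A, the class with the lowest sum, to 751.8, 411.3, 74.9 and 97.6 CPM. The ratio of the highest to the lowest Ctr library was thus 4.31 for H1, 9.63 for H4 and 10.0 for H2A. H2B, with Ctr sums of 2545, 1626, 453.1 and 496.3 CPM, spanned 5.62 times, and H3, with 1496, 855.5, 170.2 and 219.3 CPM, spanned 8.79 times. Over the 4 Ctr libraries H1 thus had the smallest ratio of the 5 classes and H2A the largest.

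**Figure D1:**
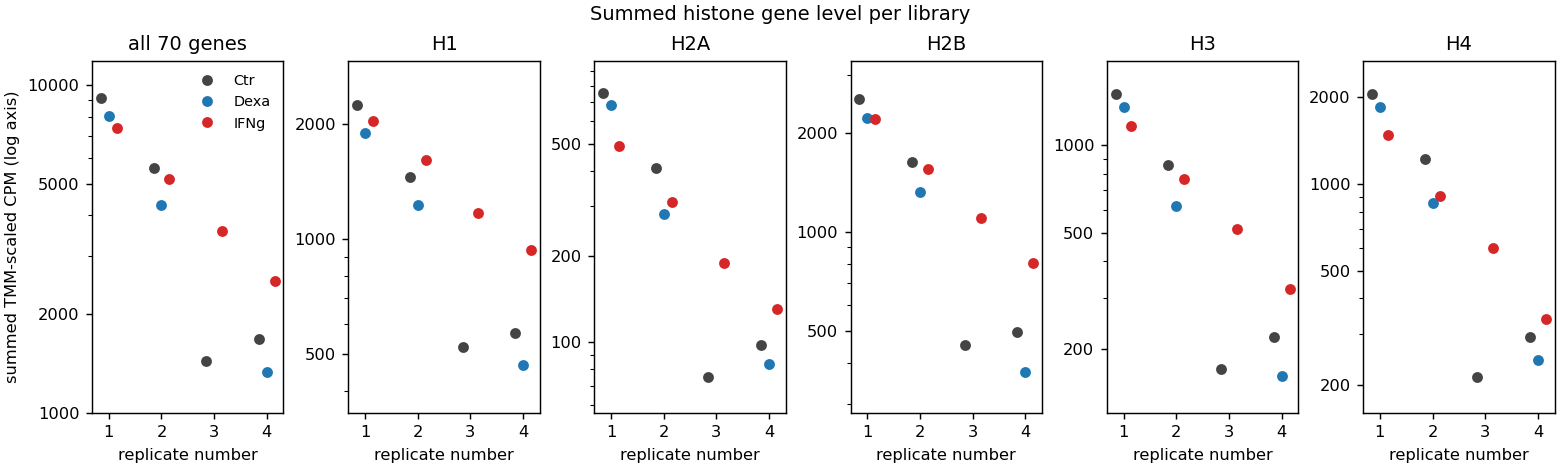
Summed TMM-scaled CPM of all 70 histone genes and of each class (log axis), against the replicate number, with 1 point per library coloured by group. In every panel and group replicates 1 and 2 lie above replicates 3 and 4, and Ctr H4 runs from 2057 down to 213.6. Dexa replicate 3 is left out.

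Gene by gene, the mean CPM of Ctr replicates 1 and 2 was 5.88 times that of replicates 3 and 4 at the median of the 64 tested members with reads in both, with a range of 0.844 to 31.0. The median over 17874 tested genes was 0.987. The ratio was over 2 for 61 of the 64 members and for 1193 of the 17874 genes. Among classes the median ratio was 3.75 for H1, 4.94 for H2B, 5.66 for H3, 7.02 for H4 and 11.8 for H2A. Members with the largest ratios were Hist2h2aa1 (31.0), Hist1h2an (20.8) and Hist1h2ak (18.3), and Hist1h2ai had no read in Ctr replicates 3 and 4. The ratio of Hist2h2aa1 depends on how reads were divided with Hist2h2aa2, which has an identical coding sequence. Its share of their reads was 28.8%, 26.3%, 9.02% and 10.2% in Ctr replicates 1 to 4. The smallest ratios were those of Hist2h2be (0.844), Hist3h2ba (1.69), the pseudogene Hist3h2bb-ps (1.79), Hist3h2a (2.24), Hist2h2bb (2.46) and Hist1h1e (2.66). Hist2h2be was thus the only member not higher in replicates 1 and 2.

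The ratio was also read by how far the annotated transcript runs. Of the 15 members whose transcript ends within 2 bases of the stop codon, the 12 tested with a ratio had a median of 7.89 (2.46 to 20.8), and the 22 that end within 60 bases after a stem-loop had a median of 7.32 (4.0 to 31.0). Of the 24 that run further past the stem-loop, the 22 tested had a median of 4.99 (1.69 to 14.9), and the other 6 protein-coding members one of 4.5 (0.844 to 9.89). The ranges overlapped over most of their length. The 60-base limit was chosen after the values were seen, and the figures are given as a description. Hist2h2be, the member with the lowest ratio, has an annotated transcript that continues 2192 bases after the stop codon with no stem-loop found.

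**Figure D2:**
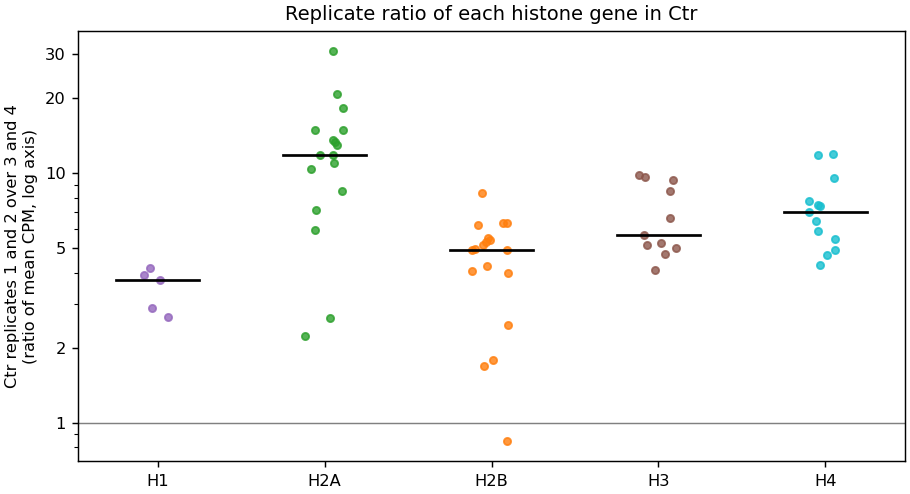
Mean CPM of Ctr replicates 1 and 2 divided by that of replicates 3 and 4 (log axis), with 1 point per tested histone gene and a bar at the class median. The class medians run from 3.75 (H1) to 11.8 (H2A), and Hist2h2be at 0.844 is the only gene below 1.

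Within a class the reads were spread over many genes. By mean Ctr CPM the leading H1 genes were Hist1h1d, Hist1h1e and Hist1h1c. Hist1h1d (chr13:23553262-23560686) stood at 557.3, 347.9, 105.0 and 126.8 CPM in Ctr replicates 1 to 4. Hist1h1e (chr13:23620629-23622558) stood at 466.3, 317.3, 147.3 and 146.9 CPM. Hist1h1c (chr13:23738808-23740367) stood at 477.2, 306.4, 90.2 and 96.6 CPM. All 3 were higher in replicates 1 and 2, but the spread was smallest for Hist1h1e. Per length the order differed, because the annotated transcript of Hist1h1d is long: mean Ctr TPM, which divides by transcript length, was 235 for Hist1h1a, 218 for Hist1h1b, 109 for Hist1h1c and 23.9 for Hist1h1d.

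Among H2A genes Hist2h2aa2 (chr3:96239749-96240276) was highest in CPM, with 191, 103.9, 14.6 and 20.0 in Ctr replicates 1 to 4. It was followed by Hist3h2a (chr11:58954685-58956830), with 97.1, 80.7, 36.9 and 42.6 CPM, and Hist1h2ab (chr13:23751126-23751598), with 80.0, 47.1, 4.2 and 7.96 CPM. Hist1h2ab thus varied over a wider range than Hist3h2a. Among H2B genes Hist1h2bg, Hist1h2bb and Hist2h2bb led, with mean Ctr levels of 146, 136 and 131 CPM, and Hist2h2bb (chr3:96269752-96270132) was highest per length at 448 TPM. The leading H3 genes Hist1h3b, Hist1h3e and Hist1h3c had mean Ctr levels of 107, 85.9 and 78.8 CPM. Among H4 genes Hist1h4d, Hist1h4h and Hist1h4n had means of 169, 113 and 108 CPM. In each of the 4 core classes the SD over the 4 Ctr libraries was of the size of the mean for most of these genes (103 CPM for Hist1h2bb, 92.2 for Hist1h3b, 146 for Hist1h4d). The members share this spread between replicates, so it does not bear on their order within a library. Hist1h3b was above Hist1h3e, and Hist1h3e above Hist1h3c, in every Ctr library. Hist1h2bg was above Hist1h2bb in Ctr replicates 1 and 2 but not in 3 and 4.

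Several members are near copies, and the division of reads among them by the quantification is uncertain. The pairs Hist1h2ao and Hist1h2ap, Hist1h2bq and Hist1h2br, Hist1h4m and Hist1h4n, Hist2h2aa1 and Hist2h2aa2, and Hist2h3c1 and Hist2h3c2 have identical coding sequences. The share of a pair's reads given to the first gene ranged over the 11 libraries from 17.5% to 62.2% for Hist1h2ao with Hist1h2ap, from 57.9% to 95.4% for Hist1h2bq with Hist1h2br, and from 4.07% to 42.3% for Hist1h4m with Hist1h4n. It ranged from 9.02% to 28.8% for Hist2h2aa1 with Hist2h2aa2. The class sums do not depend on this division within a class. The 13 H4 genes share 12 distinct coding sequences whose identity was 85.3% to 100% (median 93.9%). The H1 genes have 6 different coding sequences of 630 to 672 bases, and their identity was not measured because no pair is of equal length. Reads in transcripts longer than the shortest protein-coding one made up 99.4% of Hist2h3c1, 97.6% of Hist1h2br, 38.0% of Hist1h2bp, 17.1% of Hist1h2bq and 1.13% of Hist1h2be. Hist2h3c1 had 26.3 reads in all, and its 2 transcripts are 1820 and 1825 bases long. The 381-base transcripts of Hist1h2br and Hist1h2bq are identical, so the values of these genes depend on how their reads were divided.

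The first comparison asked what IFN-γ did to these genes. Summed over all members, IFNg libraries stood at 7371, 5151, 3574 and 2529 CPM in replicates 1 to 4, against 9094, 5565, 1432 and 1674 CPM in Ctr. Within pairs of the same replicate number the log2 difference was -0.30, -0.11, 1.32 and 0.60, a mean of 0.38 ± 0.74 (SD, n = 4 pairs). IFNg was lower than Ctr in replicates 1 and 2 and higher in replicates 3 and 4, and the mean was smaller than the SD. The median member showed log2 differences of -0.42, -0.29, 1.51 and 0.47 in the 4 pairs, with 6 of 65, 13 of 65, 62 of 64 and 53 of 64 members higher in IFNg. The median over all genes lay between -0.02 and 0.01 in the same pairs.

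By class, the mean log2 difference between IFNg and Ctr within pairs was 0.47 ± 0.58 for H1, 0.43 ± 0.70 for H2B, 0.40 ± 0.89 for H3, 0.20 ± 0.92 for H4 and 0.19 ± 0.89 for H2A. H1 sums in IFNg were 2036, 1611, 1166 and 935 CPM, so that H1 alone was higher than in Ctr in 3 of 4 pairs, with log2 differences of -0.14, 0.15, 1.16 and 0.72. H4 sums in IFNg were 1485, 907.3, 601 and 340.2 CPM, with log2 differences of -0.47, -0.43, 1.49 and 0.21. Every class was higher in IFNg in replicates 3 and 4, and every class but H1 was lower in replicates 1 and 2. Pair 3 decided these means: without it they were 0.24 for H1, 0.14 for H2B, 0.006 for H3, -0.23 for H4, -0.20 for H2A and 0.06 for all members.

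**Figure D3:**
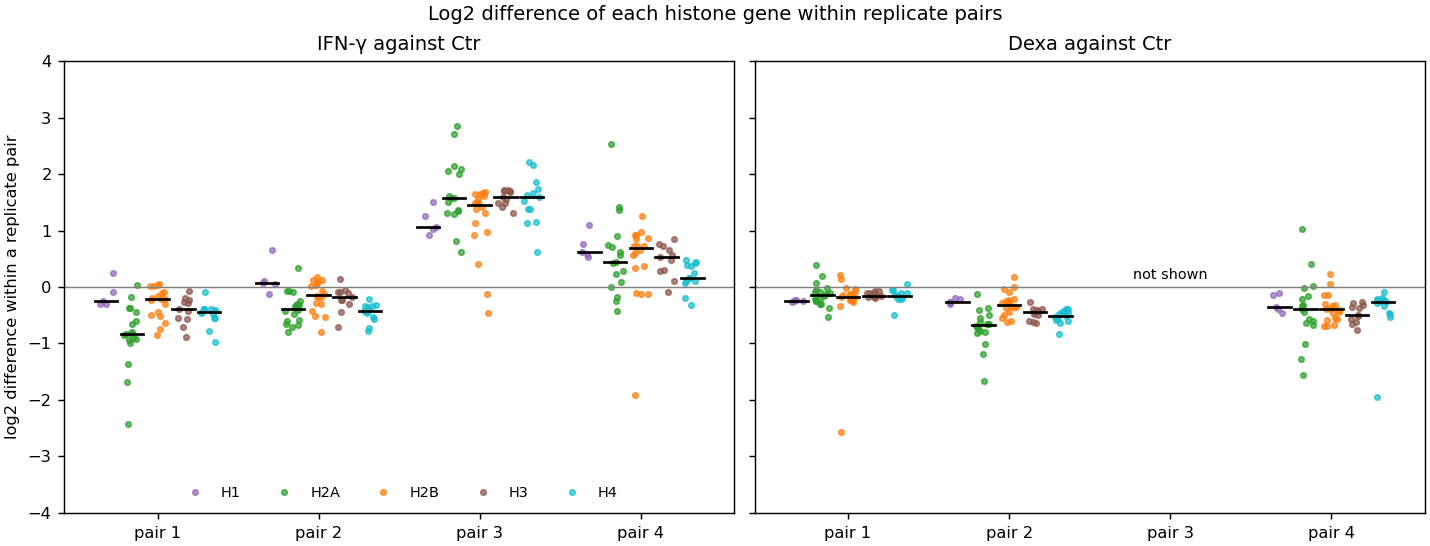
Log2 difference in CPM within each replicate pair for IFNg against Ctr and Dexa against Ctr, with 1 point per tested histone gene coloured by class and a bar at each class median. Over all classes the IFNg medians are -0.42, -0.29, 1.51 and 0.47 in pairs 1 to 4, and the Dexa medians -0.16, -0.47 and -0.38 in pairs 1, 2 and 4. Dexa pair 3 is not shown because its table is incomplete, and 1 IFNg point lies outside the axis.

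Single members passed the test in both directions. With edgeR's quasi-likelihood test, the replicate number as a block and Benjamini-Hochberg adjustment over 17919 genes, 1 of the 65 tested members rose under IFN-γ and 2 fell. Of all tested genes 15.9% rose and 15.3% fell at the same threshold, and the histone genes made smaller shares in both directions. The median log2 fold change of the members was 0.28, against -0.01 for all genes. It fell below 0 without the block (-0.12), without Ctr replicate 3 (-0.17) and without IFNg replicate 3 (-0.16). Higher in all 4 pairs were 3 members, Hist1h1a, Hist1h2be and Hist1h2bn (22.1% of all genes), and lower in all 4 were Hist2h2be and Hist3h2bb-ps (22.8% of all genes). Hist1h2be and Hist1h2bn are named for this count after their values were seen.

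Hist1h1a (chr13:23763666-23764406), a linker histone gene, was the member that rose. It stood at 374.7, 238.9, 101 and 112 CPM in Ctr replicates 1 to 4 and at 443.7, 376.7, 287.7 and 238.8 CPM in IFNg. IFNg was higher in every pair, although the groups overlapped because of the span of the Ctr replicates. Its log2 fold change was 0.89 ± 0.22 (SE), with an adjusted p of 0.026 by edgeR's quasi-likelihood test. The call was kept in 8 of 17 alternative settings, with adjusted p from 0.0015 to 0.466. It was lost without the block (log2 fold change 0.70 in edgeR and in DESeq2), with no filter on low counts (0.86) and on leaving out Ctr replicate 2, 3 or 4 (0.92, 0.67 and 0.88) or IFNg replicate 2, 3 or 4 (0.97, 0.67 and 0.75). The promoter of Hist1h1a printed above holds CCAAT and TATAAA but neither AAACACA nor TTCNNNGAA.

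The members that fell were both from the H2B class and low in level. Hist2h2be (chr3:96221119-96223738) stood at 5.84, 5.22, 7.24 and 5.87 CPM in Ctr and at 3.51, 4.28, 5.26 and 5.41 CPM in IFNg. Its log2 fold change was -0.40 ± 0.12, with an adjusted p of 0.028 by edgeR's test. Each IFNg library was below its Ctr partner, with some overlap of the groups. Hist3h2bb-ps (chr11:58954048-58954512), annotated as a processed pseudogene, stood at 14.7, 12.7, 7.84 and 7.47 CPM in Ctr and at 8.16, 7.30, 7.21 and 6.87 CPM in IFNg. Its log2 fold change was -0.48 ± 0.15, with an adjusted p of 0.036 by edgeR's test. The IFNg values of Hist3h2bb-ps lay close together while the Ctr values fell into a higher and a lower pair. Each of the 2 calls was kept in 8 alternatives, of 16 for Hist2h2be and 17 for Hist3h2bb-ps. That of Hist2h2be was lost on leaving out replicate 1, 2 or 3 of Ctr or of IFNg (-0.29 to -0.44), and that of Hist3h2bb-ps without Ctr replicate 1, 2 or 4, IFNg replicate 1 or 2, or Dexa replicate 2 (-0.33 to -0.53). Without the block neither was called in edgeR (-0.39 and -0.53) or DESeq2 (-0.40 and -0.54), and Hist3h2bb-ps was not called with all 12 libraries (-0.48).

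The abundant members did not pass the test. Among the leading core genes, Hist1h3b gave 0.56 ± 0.37 (log2 fold change ± SE, adjusted p = 0.32), Hist1h2bb 0.49 ± 0.30 (adjusted p = 0.29), Hist1h4d 0.17 ± 0.32 (adjusted p = 0.75) and Hist2h2aa2 -0.06 ± 0.41 (adjusted p = 0.94), all by edgeR's quasi-likelihood test. In IFNg replicates 1 to 4 Hist1h3b stood at 193, 127.4, 103 and 67.4 CPM, against 227, 132.6, 32.0 and 37.6 CPM in Ctr. Hist1h4d stood at 270.9, 163.7, 111 and 69.6 CPM, against 354.6, 217.2, 42.9 and 62.0 CPM in Ctr. Both were below Ctr in replicates 1 and 2 and above it in replicates 3 and 4. Hist1h1d, Hist1h1e and Hist1h1c gave 0.43 ± 0.26, 0.36 ± 0.16 and 0.31 ± 0.23, with adjusted p of 0.28, 0.13 and 0.38.

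Because the pairs disagreed, the IFNg effect was also fitted separately in replicates 1 and 2 and in replicates 3 and 4, which share a title prefix. This split was chosen after the data were seen, and replicates 1 and 2 do not share a prefix with each other. In replicates 1 and 2, 1 member was called higher (10.4% of all genes) and 7 lower (9.2% of all genes), with a median log2 fold change of -0.38. In replicates 3 and 4, 31 members were called higher (13.5% of all genes) and 0 lower (10.1% of all genes), with a median of 1.01; at an unadjusted p under 0.05 the counts were 43 and 0. The median over all genes was -0.001 and -0.023. Counts in replicates 1 and 2 rested on single libraries: 1, 2 and 1 were called lower without Ctr replicate 1, IFNg replicate 1 and Ctr replicate 2, and 26 or 27 without any 1 of the Ctr and IFNg libraries of replicates 3 and 4. In replicates 3 and 4, 56 and 55 were called higher without Ctr and IFNg replicate 4, with a median of 1.51 in the latter case. Without Ctr or IFNg replicate 3, 23 were called higher and the median was 0.46. What else differed between these litters was not recorded in the labels, so the prefix and the litter cannot be told apart.

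The difference of the IFNg effect between the replicate pairs is given as a description, because the split followed from the same values in the same libraries and a test of it is no independent support. In the fit across all genes, edgeR called it larger in replicates 3 and 4 for 14 members (0.491% of all genes) and smaller for 0 members (0.0725% of all genes). The estimate was above 0 for all 65 tested members, from 0.17 to 5.94 on the log2 scale with a median of 1.33, and 51 and 0 members were larger and smaller at an unadjusted p under 0.05. The highest value is that of Hist1h2ai, which had no read in Ctr replicates 3 and 4 or in IFNg replicate 4. DESeq2 called the effect larger for 32 members, and for 257 of all 17919 genes. Of the 14 called, 8 were H2B, 3 H2A and 3 H1 genes, and no H3 or H4 gene was called. The calls do not follow the size of the difference, whose median was 0.99 for H1, 1.19 for H2B, 1.35 for H3, 1.39 for H4 and 1.72 for H2A. Hist1h2bb, for example, had a log2 fold change of -0.13 ± 0.12 in replicates 1 and 2 and 1.09 ± 0.13 in replicates 3 and 4, a difference of 1.22 ± 0.17. Hist1h1c had -0.21 ± 0.11 and 0.83 ± 0.11, a difference of 1.04 ± 0.15. For Hist1h1a, called higher in both (0.45 ± 0.12 and 1.3 ± 0.12), the difference was 0.85 ± 0.17. The count of 14 rests on single libraries: it was 0 without Ctr replicate 1, 1 without IFNg replicate 1, Ctr replicate 2, Ctr replicate 3 or IFNg replicate 3, 26 without IFNg replicate 2, and 53 and 52 without Ctr and IFNg replicate 4. The median difference lay between 0.77 (without Ctr or IFNg replicate 3) and 1.84 (without Ctr or IFNg replicate 4).

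Dexamethasone, a synthetic glucocorticoid, was compared with Ctr in replicates 1, 2 and 4. Summed over all members, Dexa libraries stood at 8012, 4307 and 1332 CPM, against 9094, 5565 and 1674 CPM in the Ctr libraries of the same number. The log2 difference was -0.18, -0.37 and -0.33, a mean of -0.29 ± 0.10 (SD, n = 3 pairs). All 3 pairs were lower in Dexa, and the difference was small beside the span of the Ctr libraries. By class the mean was -0.25 ± 0.02 for H1, -0.30 ± 0.21 for H2A, -0.30 ± 0.11 for H2B, -0.35 ± 0.18 for H3 and -0.31 ± 0.18 for H4.

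No single member passed the test in Dexa. By edgeR's quasi-likelihood test 0 members were called higher (1.42% of all genes) and 0 lower (0.279% of all genes), 0 had an unadjusted p under 0.05, and DESeq2 with the block also called 0. The median log2 fold change of the members was -0.14, and it was above 0 without the block (0.04), without Ctr replicate 1 (0.008) and without Ctr replicate 2 (0.04). It was -0.32 without Ctr replicate 3 and without IFNg replicate 3. In each of these settings 5 members had an unadjusted p under 0.05 by edgeR's test, all lower, and 0 were called. Lower in all 3 pairs were 54 of the 65 members (22.8% of all genes), and 1 was higher in all 3 (21.3% of all genes), Hist2h2be, with 6.47, 5.87 and 6.86 CPM against 5.84, 5.22 and 5.87 CPM in Ctr. Members share cells and libraries, so the 54 are not independent. Hist1h1d stood at 462.2, 289.5 and 99.0 CPM in Dexa, each below its Ctr partner, with a fitted log2 fold change of -0.16 ± 0.28. Hist1h4d stood at 317.4, 156.9 and 52.4 CPM and gave -0.11 ± 0.34, and Hist3h2a at 96.2, 74.3 and 41.9 CPM gave 0.03 ± 0.15. Hist3h2a was thus fitted above 0 although each of these Dexa libraries was below its Ctr partner. The fit also holds Ctr and IFNg replicate 3, which have no Dexa partner in it, so its estimates need not match the pairs.

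Dexa replicate 3 did not follow the other 3. Over the genes its table lists, and with all libraries scaled on those genes alone, the summed Hist1 and Hist3 members gave log2 differences of -0.22, -0.37, 0.49 and -0.32 in pairs 1 to 4, a mean of -0.10 ± 0.40. In pair 3, 51 of 54 members were higher in Dexa, with a median log2 difference of 0.77. With it, 3 of 55 members were lower in all 4 pairs, whereas 46 of the same 55 were lower in pairs 1, 2 and 4. The same counts were not made over all listed genes, so these are given as a description of the members alone. The class means became -0.17 for H1, -0.15 for H2B, -0.08 for H3, 0.02 for H2A and 0.04 for H4. Again 0 members were called, against 95 genes higher and 31 lower of the 6319 tested. Pair 3, which had the lowest Ctr histone level, was also the pair with the largest IFNg difference, and both differences use the same Ctr library.

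IFNg and Dexa libraries were compared directly in replicates 1, 2 and 4. The log2 difference in summed histone CPM was -0.12, 0.26 and 0.93, a mean of 0.35 ± 0.53 (n = 3 pairs). By edgeR's test 1 member was higher in IFNg (17.2% of all genes) and 1 lower (16.8% of all genes), with a median log2 fold change of 0.40. These were again Hist1h1a (1.08 ± 0.25, adjusted p = 0.019) and Hist2h2be (-0.57 ± 0.14, adjusted p = 0.0080). Hist1h1a stood at 315.7, 206.9 and 81.7 CPM in the Dexa libraries, below the IFNg library of the same number each time. Without IFNg replicate 1 the count of higher members was 6, and without Ctr or IFNg replicate 3 the counts were 4 higher and 3 lower. The call of Hist1h1a was lost without Dexa replicate 2 (1.13), Dexa replicate 4 (0.91) or IFNg replicate 4 (0.94), with no filter on low counts (1.08) and without the block (0.74 in edgeR and in DESeq2). Higher in all 3 pairs were 10 members (27.7% of all genes), and lower in all 3 were 2 (28.8% of all genes), Hist2h2be and Hist4h4.

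The balance of linker to core histone mRNA followed the replicates as well. Summed H1 CPM as a percentage of summed core CPM was 32.8, 35.2, 57.1 and 51.3 in Ctr replicates 1 to 4. In Dexa replicates 1, 2 and 4 it was 30.9, 39.7 and 54.3, and in IFNg replicates 1 to 4 it was 38.2, 45.5, 48.4 and 58.6. Within each group, the libraries with the least histone mRNA had the highest ratio of H1 to core. The log2 difference of this ratio between IFNg and Ctr was 0.22, 0.37, -0.24 and 0.19 (mean 0.14 ± 0.26, n = 4 pairs), and between IFNg and Dexa 0.30, 0.20 and 0.11 (mean 0.20 ± 0.10, n = 3 pairs). Against Ctr the mean was smaller than the SD of the pair differences. Against Dexa all 3 pairs were higher in IFNg, and the mean was larger than that SD. No test was made on these sums.

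Genes that work with the histone genes were read beside them. Of 18 genes of histone gene transcription and 3′ processing, 3 rose under IFN-γ and 1 fell, with a median log2 fold change of 0.02. The 3 of 18 are near the 15.9% of all genes that rose, so the count is no result about the list. Those that rose were Casp8ap2 (0.38 ± 0.06, adjusted p = 0.00039), a component of the histone locus body, the processing factor Cpsf2 (0.23 ± 0.05, adjusted p = 0.0039) and Slbp (0.38 ± 0.08, adjusted p = 0.0042). Cstf2, a cleavage factor, fell by 0.33 ± 0.06 on the log2 scale (adjusted p = 0.0017). All of these come from edgeR's quasi-likelihood test. Slbp stood at 65, 51.8, 29.7 and 28.4 CPM in Ctr and at 67.9, 65.4, 43.5 and 43.1 CPM in IFNg. Its Ctr values were thus ordered by replicate like those of the histone genes. Npat, the coactivator of histone gene transcription, gave 0.17 ± 0.06 with an adjusted p of 0.056.

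Most S-phase genes passed the test in the same libraries. Of 24 genes of S phase and DNA replication, 21 rose and 0 fell under IFN-γ by edgeR's test with the block, with a median of 0.56. Of all genes 15.9% rose and 15.3% fell. DESeq2 with the block called 22 and 0 of the 24, and without the block edgeR called 0. The first by p were Mcm7, a subunit of the replicative helicase (0.63 ± 0.10), Tyms, which makes thymidylate (0.49 ± 0.08), and the primase subunit Prim1 (0.64 ± 0.12). In replicates 1 and 2, where the median histone gene was lower in IFNg, 11 of the 24 were called higher (10.4% of all genes). Their list had a median of 0.29 there. In replicates 3 and 4, 23 were called higher (13.5% of all genes) with a median of 0.87. The difference between the replicate pairs was called for 4 (0.491% of all genes), Pcna, Mcm5 and Rrm2 first, with a median of 0.58. The summed CPM of the list differed between IFNg and Ctr by log2 0.15, 0.40, 0.91 and 0.83 in pairs 1 to 4, while the histone sum differed by -0.30, -0.11, 1.32 and 0.60. In pairs 1 and 2 the S-phase sum was therefore higher in IFNg where the histone sum was lower. The S-phase sum itself ran from 1181 to 3185 CPM in Ctr, from 991.4 to 2826 CPM in Dexa and from 2106 to 3544 CPM in IFNg.

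**Figure D4:**
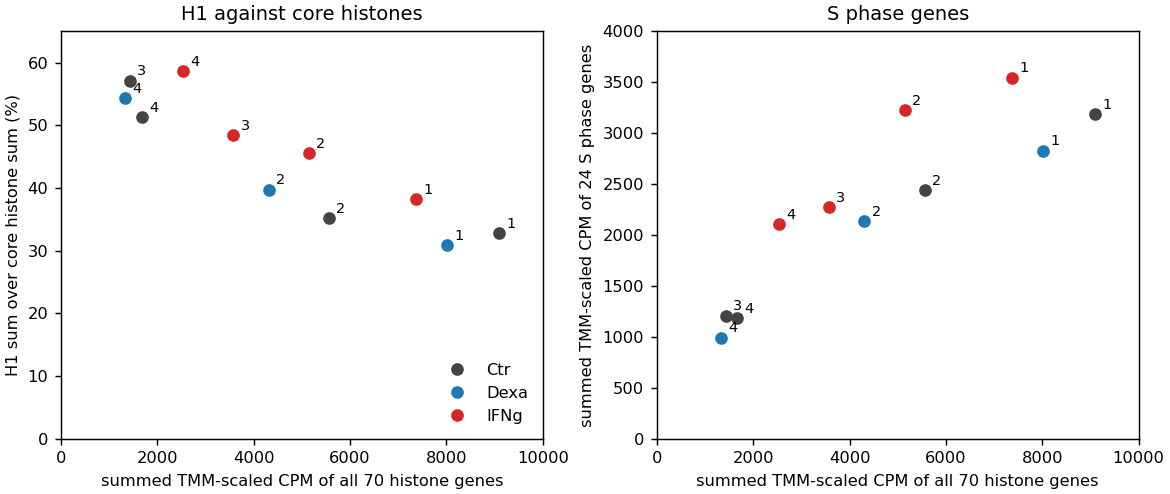
Summed H1 CPM as a percentage of summed core histone CPM (left) and summed CPM of 24 S-phase genes (right), each against the summed CPM of all 70 histone genes, with 1 point per library numbered by replicate and coloured by group. The H1 percentage is highest, up to 58.6, where the histone sum is low, and IFNg libraries 1 and 2 have S-phase sums above those of Ctr 1 and 2 at lower histone sums.

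Of 12 genes of G2 and mitosis, 2 rose by edgeR's test (Top2a, 0.90 ± 0.21, and Aurka, 0.57 ± 0.15), with a median of 0.53. The 2 of 12 are near the 15.9% of all genes that rose, so the count is no result about the list. DESeq2 with the block called 9 higher (2717 of 17919 genes). In replicates 3 and 4 edgeR called all 12 higher (13.5% of all genes). Of 11 histone chaperone genes 6 rose and 0 fell by edgeR's test and by DESeq2 with the block, with a median of 0.24. By edgeR 15.9% of all genes rose and 15.3% fell. Without the block edgeR called 0 of the mitotic and 0 of the chaperone genes. They were led by the histone acetyltransferase Hat1 (0.61 ± 0.09), the H1 and H3 chaperone Nasp (0.39 ± 0.07) and the H3 and H4 chaperone Asf1b (0.72 ± 0.14). Of 11 genes listed as replication-independent histone genes, 0 were called by edgeR in either direction, and 1 was higher at an unadjusted p under 0.05. DESeq2 called 1 higher, and the median was 0.02. In Dexa 0 genes of these 5 lists were called by edgeR or by DESeq2 with the block. At an unadjusted p under 0.05 edgeR gave 2 S-phase, 2 chaperone and 1 processing gene, all lower, and the medians were -0.15 for S phase and -0.20 for G2 and mitosis.

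**Figure D5:**
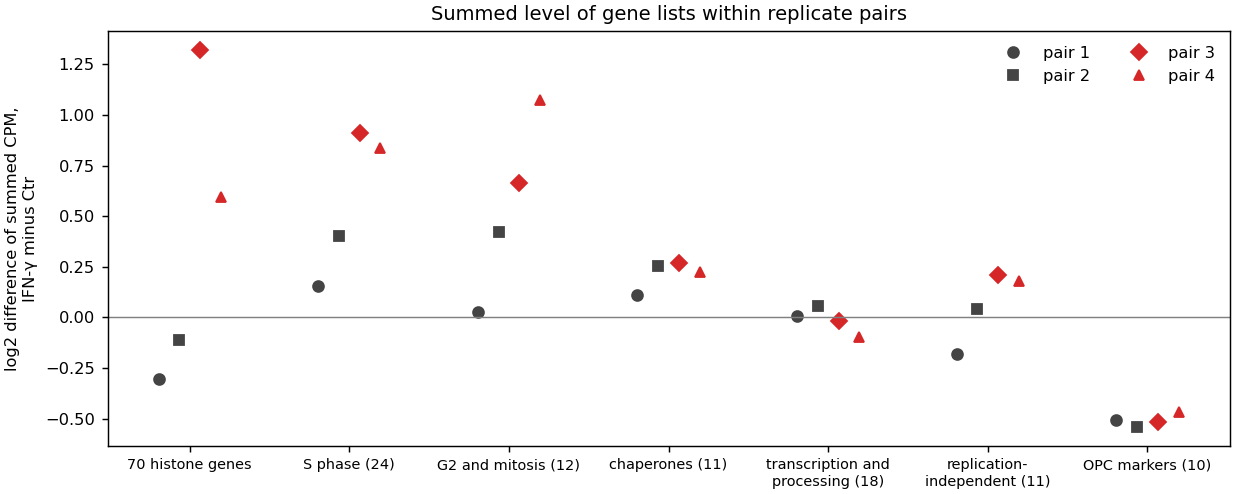
Log2 difference in summed CPM between IFNg and Ctr for the 70 histone genes, the 5 related lists and the OPC markers, with 1 point per replicate pair (pairs 3 and 4 in red). The histone sum runs from -0.30 to 1.32 and changes sign between pairs, the S-phase sum runs from 0.15 to 0.91, and the OPC marker sum stays between -0.54 and -0.47.

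Marker lists of cell types also differed between the groups. Of 10 OPC markers 7 fell under IFN-γ (15.3% of all genes), with a median of -0.58, and 0 were called without the block. The summed list differed from Ctr by log2 -0.51, -0.54, -0.51 and -0.47 in the 4 pairs. Unlike the histone sums, it had the same sign and a similar size in each pair. Of 8 astrocyte markers 3 rose (15.9% of all genes) and 3 fell (15.3% of all genes). The summed astrocyte list was 0.06, 0.16, 0.90 and 0.70 higher on the log2 scale in pairs 1 to 4, largest in the pairs in which the histone sum was higher, and 0.37, 0.42 and 0.41 higher in the Dexa libraries of pairs 1, 2 and 4. The summed endothelial and mural list, at 7.43 to 10.9 CPM in Ctr, was higher by 0.99, 1.20, 1.11 and 0.66 in IFNg and by 0.48, 0.77 and 0.85 in Dexa. The summed mature oligodendrocyte list, at 37.8 to 178.7 CPM in Ctr, differed by -0.39, 0.22, -1.33 and -2.56 in IFNg and by 0.30, 0.64 and 0.55 in Dexa. Of the 7 tested genes of each of these lists, Acta2 rose and Kdr fell under IFN-γ among the endothelial and mural genes, and Aspa rose among the oligodendrocyte genes. Single genes of 7 are near the 15.9% and 15.3% of all genes that rose and fell, so these counts are no result about the lists. Unlike its sum, the median endothelial and mural gene was lower under IFN-γ (-0.21), with 2 of the 7 above 0. In Dexa 6 of the 7 were above 0, with a median of 0.71. Microglia markers summed to 8.64 to 12.6 CPM in Ctr and 10.8 to 14.1 CPM in IFNg, with Aif1 and Cx3cr1 at or near 0, and 0 of 3 tested were called by edgeR or DESeq2 or had an unadjusted p under 0.05. In bulk RNA, fewer dividing cells and less histone mRNA per cell cannot be told apart. The part that the S-phase genes, the marker lists and the title prefix have in the histone differences was not tested.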

How the data were processed

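Total RNA from 12 OPC cultures was sequenced in pairs of reads. The authors quantified transcripts with Salmon 0.8.2 and deposited, per transcript, estimated counts and TPM. The submitters' processing notes also name STAR, DESeq2 and the mm10 (GRCm38) build. The authors' tables of fold changes and p-values were not used. Estimated counts were summed per gene (Ensembl annotation) and rounded.

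The 17919 genes that reached 10 counts in 4 or more of the 11 complete libraries were fitted with edgeR 4.0.16 in R 4.3.3 (TMM, quasi-likelihood test, replicate number as a block, Benjamini-Hochberg adjustment, calls at adjusted p under 0.05). DESeq2 1.42.0, other scaling, no filter and each library left out were alternatives. Replicates came from different litters, and the replicate numbers were taken as pairs because the deviations of same-numbered libraries from their group means correlated in every case (0.497 to 0.868). Other pairs ran from -0.84 to 0.692, with 4 of 45 above 0.497, each between replicates 3 and 4, so the numbers do not tell these replicates apart cleanly. On simulated counts of 17919 genes, edgeR recovered 82% to 87.5% of 200 changed genes in IFNg against Ctr, and 4.09% to 9.33% of its calls were false, so the adjusted threshold can be exceeded. DESeq2 recovered 78.5% to 86.5% of them, and 8.72% to 11.3% of its calls were false. Sums over members have no test.

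Named members were the 3 with the highest Ctr CPM per class and every called one. Members and lists were chosen with earlier results of these data known. P-values measure the spread between these cultures only.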

Additional observations from a re-analysis of the deposited data

Results flagged for a closer look

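The IFNg effect in replicates 3 and 4, whose titles begin alike, differed from that in replicates 1 and 2 for 14 histone genes by edgeR's quasi-likelihood fit with Benjamini-Hochberg adjustment, against 0.491% of all genes. The split was chosen after the values were seen, so this is a description of the same libraries and no independent support. Of those named, the H2A genes showed a difference on the log2 scale of 2.49 for Hist1h2ao, 1.93 for Hist1h2ad and 1.58 for Hist1h2ac. The H2B genes showed 1.44 for Hist1h2bq, 1.32 for Hist1h2bl, 1.22 for Hist1h2bb and 0.86 for Hist2h2bb, and the H1 genes 1.04 for Hist1h1c and 0.74 for Hist1h1e. Each was larger in replicates 3 and 4. Hist1h2ao stood at 20.4, 11.1, 1.28 and 1.08 CPM in Ctr replicates 1 to 4 and at 18.1, 8.81, 5.15 and 6.25 CPM in IFNg. Hist1h2ao and Hist1h2bq each have a near-identical copy with which reads may be shared. In the 50 groups of 4 libraries that were checked for a library far from the others, 0 were found.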

How the results depend on the processing

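The direction of the IFNg difference over the histone genes depended on the block and on single libraries. The median log2 fold change against Ctr, 0.28 with the block, was -0.12 in edgeR and -0.13 in DESeq2 without the replicate block, -0.17 without Ctr replicate 3 and -0.16 without IFNg replicate 3. Against Ctr, counts of genes called higher and lower were 0 and 0 without the block (edgeR and DESeq2), 2 higher in DESeq2 with the block and 0 lower with all 12 libraries. Against Dexa they were 0 and 0 without the block, 5 higher in DESeq2 with the block, and 4 and 0 with all 12 libraries. Hist2h2be, called lower in both main comparisons, is not listed in Dexa replicate 3. It was therefore not tested with all 12 libraries, and its absence from those counts is no result. Leaving out 1 library gave 0 to 3 higher and 0 to 4 lower against Ctr, and 0 to 6 and 1 to 3 against Dexa. The highest counts of higher genes, 3 and 6, were those without IFNg replicate 1, and the highest counts of lower genes, 4 and 3, those without Ctr or IFNg replicate 3.

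With no filter on low counts, all 70 members and 33403 genes were tested. In replicates 1 and 2 this called 2 members higher and 37 lower (2073 and 2127 of all genes), and 3 were lower with all 12 libraries, and leaving out 1 library gave 0 to 1 and 1 to 27. In replicates 3 and 4, 59 were higher with no filter (2495 of all genes), and 23 to 56 on leaving out 1 library. The difference was called for 60 with no filter (581 of all genes), 32 in DESeq2 (257 of all genes) and 0 to 53 on leaving out 1 library. The cause of these shifts was not tested.

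The mean Dexa difference within pairs moved, with the incomplete library, to -0.166 (H1), 0.0199 (H2A), -0.146 (H2B), -0.0841 (H3), 0.0354 (H4) and -0.105 (all). Dexa calls stayed at 0 in every alternative. For the named genes, 866 values kept their side of the threshold, 34 lost the call, 9 gained one and 0 called values reversed. Among the 866 were 95 uncalled values that changed sign.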
